A study of Mus musculus with 12 samples.

Results

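The subject is a set of 8 genes that mark cholangiocytes, the epithelial cells that line the bile ducts: Spp1, Sox9, Epcam, Krt19, Prom1, Krt7, Cldn7 and Cftr. They were taken by gene symbol, and all 8 were found among the 24787 genes of the deposited count tables. The samples are 12 RNA-seq libraries of whole liver from C57Bl/6 mice, in 3 groups with 4 libraries each. In HFD+MEC1, mice on a high-fat diet had an injection of MEC1 into the peritoneum every day, at 0.5 mg/kg. In HFD, mice on the high-fat diet were injected daily with vehicle. In ND, mice ate a normal diet, and the labels do not say whether they were injected. The diets had run for 2 months when the high-fat mice were randomised, and the length of dosing, sex and age are not given in the sources used here. MEC1 is known here only by this code name; by its title the series concerns PROTACs, compounds that recruit ubiquitin ligases to chosen proteins. The labels do not say that each library is a different mouse, so p-values measure only the spread between these libraries, which may be technical in part.

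Bile ducts make up a small part of liver tissue. Cholangiocytes form the duct wall, joined by tight junctions, and modify bile by secreting chloride, bicarbonate and water. They arise in the embryo from precursors shared with hepatocytes, under Notch signalling, with SOX9 among the transcription factors involved. In whole liver RNA, fewer cells of a type and less RNA per cell cannot be told apart.

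Libraries held 39916405 to 51340317 counts, and 14172 genes had enough counts to be tested, all 8 markers among them. A level is given as CPM, counts scaled to a common library size with TMM factors, with its SD over 4 libraries. A fold change is a log2 difference with its SE from edgeR's quasi-likelihood test, and a call is a Benjamini-Hochberg adjusted p under 0.05 over all tested genes. Tests were two-sided. The number of genes called between HFD+MEC1 and HFD rested on single libraries: it was 4 with all of them, 460 without HFD+MEC1 replicate 1 and 72 without HFD replicate 4. Scaling by library totals in place of TMM moved the median of all genes by 0.12 between HFD and ND, and 79.5% of called genes were then higher, against 53.2% with TMM. As a check of the tissue, 9 hepatocyte markers, led by Alb, summed to 78396 to 94943 CPM in HFD+MEC1, 85755 to 100034 CPM in HFD and 89113 to 103212 CPM in ND.

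The sequences just before the start sites of 2 markers are shown because these genes carry the results below: Epcam is the marker that passed the test, and Spp1 is the most abundant one. Both come from RefSeq on GRCm38.p6, where 6 of the 8 markers had a promoter entry, and each is the 250 bases before the start, on the plus strand, written 5′ to 3′. Epcam is at chr17:87635729-87635978 and Spp1 at chr5:104434861-104435110. Capitals mark matches, on either strand, to 3 motifs: the SOX9 core ACAAAG, the TEAD motif GGAATG and the RBPJ motif TGGGAA, which shares its GGAA with the TEAD motif.
Epcam: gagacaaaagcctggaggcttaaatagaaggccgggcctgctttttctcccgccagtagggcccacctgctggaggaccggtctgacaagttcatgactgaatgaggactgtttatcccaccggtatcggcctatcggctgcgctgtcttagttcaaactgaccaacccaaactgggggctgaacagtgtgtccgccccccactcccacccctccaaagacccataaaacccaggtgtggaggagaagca
Spp1: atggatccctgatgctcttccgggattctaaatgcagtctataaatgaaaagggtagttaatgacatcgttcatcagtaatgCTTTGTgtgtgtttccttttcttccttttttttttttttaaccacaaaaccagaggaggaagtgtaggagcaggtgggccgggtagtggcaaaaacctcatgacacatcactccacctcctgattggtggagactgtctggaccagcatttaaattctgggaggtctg
The Spp1 window held 1 SOX9 core, on the minus strand. The motif GTTAAT of the transcription factor HNF1 was not counted in any window and is not marked. Its letters also occur in the Spp1 window, on the plus strand, so the SOX9 core is not the only match there. Of 32851 windows of this length, 16.5% held the SOX9 core. The Epcam window held none of the 3 motifs, as did those of Krt7 and Cftr, while that of Cldn7 held 1 TEAD motif (12.6% of all windows) and that of Prom1 1 RBPJ motif (21.6%). These are matches of letters, and binding was not measured.

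Per unit of length the markers differed widely in level, by the deposited RPKM values. Spp1 averaged 22.6 RPKM over the 12 libraries, with a range of 14.0 to 33.1 RPKM, and stood above every other marker in every library. Sox9 came next at 2.27 RPKM, with a range of 1.14 to 4.34 RPKM. Krt19 followed at 0.723 RPKM and Epcam at 0.497 RPKM, and the ranges of these neighbours overlapped. Krt7, Cldn7 and Prom1 averaged 0.285, 0.285 and 0.232 RPKM and could not be ordered beyond their spread. Cftr was the lowest, at 0.0289 RPKM. For scale, Krt8 and Krt18, keratins that hepatocytes also make, averaged 60.8 and 59.9 RPKM, so the duct keratins Krt7 and Krt19 were a trace beside them.

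All 8 markers had counts in all 12 libraries, except Cftr with 0 counts in 1 HFD+MEC1 library, and the list was led by Spp1 and Sox9, which other liver cells also make. Counts of most markers were small, from 1262 to 3111 per library for Spp1, 26 to 122 for Epcam and 0 to 26 for Cftr. Among genes with 1 to 20 counts, 70.1 to 74.7% of counts were even, and every count of Epcam and Cftr was even, so that the number of independent fragments may be lower than the count. The spread estimated for each marker (biological coefficient of variation) ran from 0.288 for Prom1 to 0.553 for Cftr, against 0.200 for all genes together. The value for all genes is not matched to the low counts of most markers.

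Between HFD+MEC1 and ND, 7 of the 8 markers had a negative log2 fold change, against 49.4% of all tested genes, with a median of -1.01 against 0.0032 over all tested genes. Epcam was called lower in HFD+MEC1 than in ND, and the other 7 did not pass the test. These 2 groups differ in diet and in MEC1, and perhaps in injection, which cannot be told apart here. Of all tested genes 4.54% were called in that comparison, and 2.4% were called lower. At an unadjusted p under 0.05 there were 5 of 8 markers, against 19.1% of all genes. Between HFD+MEC1 and HFD, and between HFD and ND, 0 of 8 markers were called with edgeR, DESeq2 or limma-voom.

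Epcam encodes an adhesion protein of epithelial cells that hepatocytes of the adult liver lack. Its level was 0.636, 0.550, 0.924 and 0.596 CPM in the HFD+MEC1 libraries, against 1.47, 0.734, 1.39 and 1.28 CPM in the HFD libraries and 2.03, 0.989, 2.95 and 2.15 CPM in the ND libraries. Every HFD+MEC1 library lay under every ND library, while HFD overlapped both groups. Epcam was the 1 marker whose HFD+MEC1 and ND libraries did not overlap, where 11% of all tested genes did not overlap in either direction and 5.84% did not overlap and were lower. The means were 0.677 ± 0.169 CPM in HFD+MEC1, 1.22 ± 0.332 CPM in HFD and 2.03 ± 0.804 CPM in ND (SD, n = 4 each). Epcam fell by 1.59 ± 0.35 on the log2 scale in HFD+MEC1 relative to ND (edgeR adjusted p = 0.0148). The call held without any 1 of the 8 libraries, with adjusted p of 0.00724 to 0.0458. Against HFD the log2 fold change was -0.85 ± 0.35 (edgeR adjusted p = 0.267), and between HFD and ND it was -0.74 ± 0.33 (edgeR adjusted p = 0.222). Epcam lies on chromosome 17, 87635979 to 87651129, and no annotated exon on the opposite strand overlaps it.

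**Figure D1:**
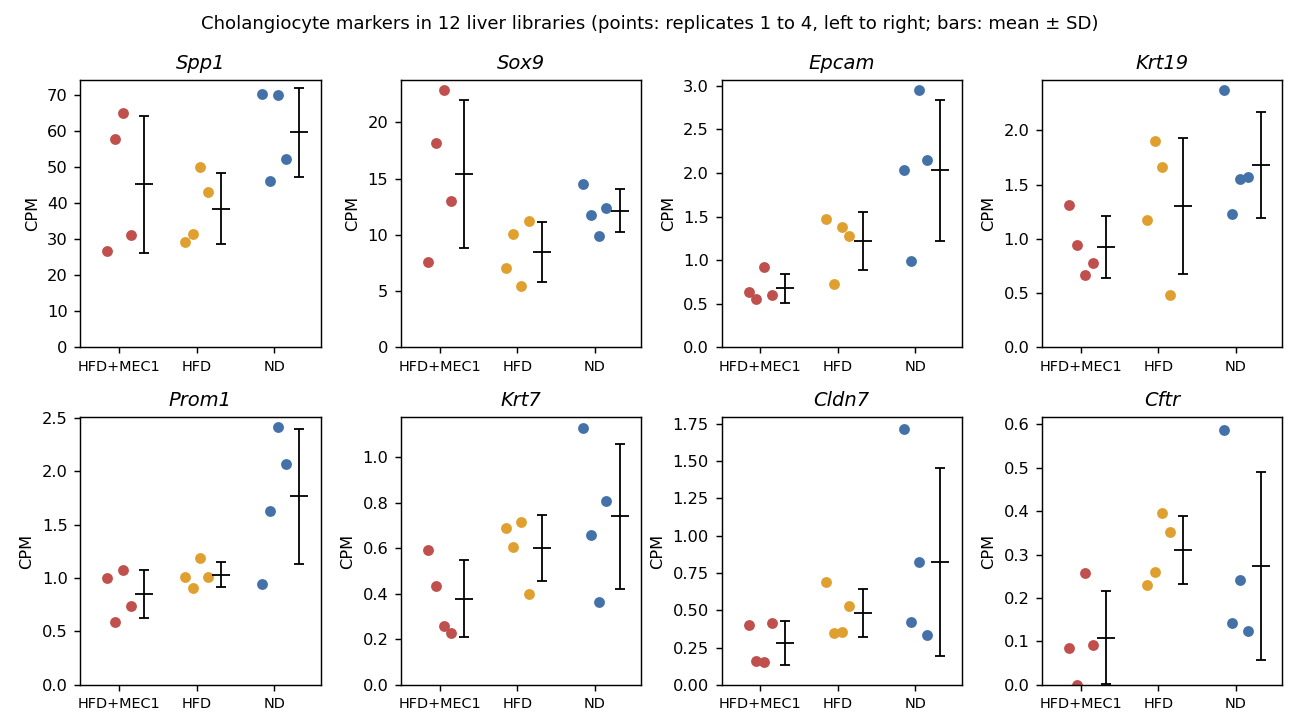
CPM of each marker (y axes, linear, from 0) in the 12 libraries. Points are replicates 1 to 4 from left to right, and bars are the mean ± SD of 4 libraries. Epcam in HFD+MEC1 sits at 0.550 to 0.924 CPM, below all ND libraries, while Sox9 and Spp1 in HFD+MEC1 spread from 7.57 to 22.9 CPM and from 26.7 to 65.1 CPM.

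Prom1 encodes prominin-1, a membrane protein of epithelial protrusions that also marks progenitor-like duct cells. It stood at 0.996, 0.590, 1.08 and 0.734 CPM in HFD+MEC1 libraries, against 1.01, 0.906, 1.19 and 1.01 CPM in HFD libraries and 0.948, 1.63, 2.42 and 2.07 CPM in ND libraries. ND replicate 1 lay among the high-fat libraries, and the other 3 ND libraries lay above all of them. The log2 fold change of HFD+MEC1 against ND was -1.06 ± 0.32 (edgeR adjusted p = 0.0695), which passed without ND replicate 1 (edgeR adjusted p = 0.0349) and with DESeq2 (adjusted p = 0.0201). Between HFD and ND it was -0.77 ± 0.31 (edgeR adjusted p = 0.164). Prom1 lies on chromosome 5, 43993620 to 44102032, and Gm16401 on the other strand covers 5.91% of its exons.

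Krt7 and Krt19 encode the keratins that pair with Krt8 and Krt18 products in duct epithelium. Krt19 stood at 1.31, 0.943, 0.667 and 0.780 CPM in HFD+MEC1 libraries, against 1.17, 1.90, 1.66 and 0.485 CPM in HFD libraries and 2.37, 1.22, 1.55 and 1.57 CPM in ND libraries. HFD replicate 4 was the lowest of all 12, and the 3 groups overlapped. Its log2 fold change was -0.49 ± 0.38 for HFD+MEC1 against HFD and -0.85 ± 0.38 for HFD+MEC1 against ND (edgeR adjusted p = 0.584 and 0.226). Krt7 stood at 0.593, 0.432, 0.257 and 0.229 CPM in HFD+MEC1 libraries, against 0.689, 0.604, 0.713 and 0.397 CPM in HFD libraries and 1.13, 0.660, 0.363 and 0.807 CPM in ND libraries. The 2 lowest Krt7 values were those of HFD+MEC1 replicates 3 and 4, and its groups also overlapped. Its log2 fold change in HFD+MEC1 was -0.66 ± 0.45 against HFD and -0.96 ± 0.45 against ND (edgeR adjusted p = 0.531 and 0.258). In HFD against ND, Krt19 stood at -0.36 ± 0.37 and Krt7 at -0.30 ± 0.44 (edgeR adjusted p = 0.636 and 0.754). Krt19 lies on chromosome 11, 100140810 to 100148665, and Krt7 on chromosome 15, 101411043 to 101430313.

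Mesothelial cells of the liver capsule can also make these keratins. Of 6 mesothelial markers, 6 were tested. In HFD+MEC1 against ND 6 had a negative log2 fold change, against 49.4% of all tested genes. The median of these markers was -0.58, with 0 called. Their summed level was 2.43 to 7.86 CPM in HFD+MEC1, 4.70 to 7.01 CPM in HFD and 2.97 to 9.43 CPM in ND. Upk1b had libraries with 0 counts, and none of the 6 was at 0 throughout. The part of these cells in the keratin values was not tested.

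Cldn7 encodes a claudin of epithelial tight junctions, and Cftr the chloride channel of bile secretion. Cldn7 stood at 0.403, 0.157, 0.154 and 0.413 CPM in HFD+MEC1 libraries, against 0.689, 0.345, 0.357 and 0.529 CPM in HFD libraries and 1.72, 0.424, 0.822 and 0.331 CPM in ND libraries. ND replicate 1 was more than 2 times as high as any other library. The log2 fold change of Cldn7 was -1.53 ± 0.56 for HFD+MEC1 against ND (edgeR adjusted p = 0.137), and -0.89 without that library. Cftr had 4, 0, 10 and 4 counts in HFD+MEC1 libraries, against 10, 12, 20 and 16 in HFD libraries and 26, 6, 10 and 6 in ND libraries. Its HFD+MEC1 values ran from 0 to 0.257 CPM, against 0.230 to 0.396 CPM in HFD, and the library with 0 counts allows up to 0.0590 CPM (3 counts, counting error only). That limit takes single counts as independent, and with all Cftr counts even it may be too low. The log2 fold change against HFD was -1.55 ± 0.77, with a 95% interval of -3.19 to 0.09 (edgeR adjusted p = 0.364). That interval runs from a several-fold lower level to no difference. With 1 library left out the value ran from -2.37 (without HFD+MEC1 replicate 3) to -1.11 and was never called. Against ND it was -1.37 ± 0.78 (edgeR adjusted p = 0.369), and -2.20 to -0.67 with 1 library left out. In HFD against ND, Cldn7 stood at -0.78 ± 0.54 and Cftr at 0.18 ± 0.71 (edgeR adjusted p = 0.451 and 0.919). Without ND replicate 1, Cldn7 stood at -0.13 and Cftr at 0.87 in that comparison. Cldn7 lies on chromosome 11, 69964779 to 69967885, and Cftr on chromosome 6, 18170687 to 18322768.

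Sox9 encodes the transcription factor of duct and precursor cells, and a low level in periportal hepatocytes is known. It stood at 7.57, 18.2, 22.9 and 13.1 CPM in HFD+MEC1 libraries, against 7.02, 10.1, 5.47 and 11.3 CPM in HFD libraries and 14.6, 11.7, 9.91 and 12.4 CPM in ND libraries. HFD+MEC1 replicates 2, 3 and 4 were above every HFD library, and replicate 1 lay within the HFD range. The means were 15.4 ± 6.61 CPM in HFD+MEC1, 8.46 ± 2.68 CPM in HFD and 12.1 ± 1.92 CPM in ND (SD, n = 4 each). The log2 fold change was 0.87 ± 0.31 for HFD+MEC1 against HFD (edgeR adjusted p = 0.23), and 1.09 without HFD+MEC1 replicate 1 (edgeR adjusted p = 0.0332). Against ND it was 0.34 ± 0.31 (edgeR adjusted p = 0.614). In HFD against ND it was -0.52 ± 0.31 (edgeR adjusted p = 0.385). The sign for Sox9 in HFD+MEC1 was opposite to that for Epcam against both other groups. Sox9 lies on chromosome 11, 112782224 to 112787760.

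Spp1 encodes osteopontin, a secreted protein made by duct cells and, in injured liver, by macrophages and stellate cells. It stood at 26.7, 57.8, 65.1 and 31.1 CPM in HFD+MEC1 libraries, against 29.3, 31.4, 50.1 and 43.1 CPM in HFD libraries and 70.2, 46.0, 69.9 and 52.3 CPM in ND libraries. HFD+MEC1 replicates 2 and 3 were inside the ND range and replicates 1 and 4 below it, and all 3 groups overlapped. The log2 fold change was 0.23 ± 0.31 for HFD+MEC1 against HFD and -0.63 ± 0.31 for HFD against ND (edgeR adjusted p = 0.779 and 0.28). Spp1 lies on chromosome 5, 104435118 to 104441050, and Gm42793 on the same strand covers 18.8% of its exons.

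Lipid-associated macrophages are another known source of Spp1 in fatty liver. Of 8 markers of these cells, 2 rose in HFD against ND and 6 did not pass, and in HFD+MEC1 against HFD 0 passed. In HFD against ND 6 of the 8 were positive, with a median of 0.59. In HFD+MEC1 against HFD 7 of the 8 were negative, with a median of -0.32. Over all tested genes, 50.6% and 48.9% were negative in these comparisons. Of all tested genes, 6.3% and 0.0282% were called in these comparisons. Mmp12, a macrophage protease, averaged 0.454 CPM in HFD+MEC1, 2.50 CPM in HFD and 0.157 CPM in ND (edgeR adjusted p = 0.0048 for HFD against ND). Gpnmb averaged 0.334 CPM in HFD+MEC1, 1.77 CPM in HFD and 0.307 CPM in ND (edgeR adjusted p = 0.0375 for HFD against ND), a call lost in 7 of 8 fits that left out 1 library, with limma-voom and with log2 RPKM at both pseudocounts, 0.1 and 1. The summed level of the list was 43.0 to 81.1 CPM in HFD+MEC1, 46.5 to 77.8 CPM in HFD and 77.7 to 118 CPM in ND, and none of its genes was at 0 throughout a group. Most of that sum came from the 3 most abundant genes, Lpl, Fabp5 and Cd9, so it says little about the other markers. Of the 3 most abundant genes of the list, Lpl and Fabp5 had lower means in HFD than in ND, and none of the 3 passed. Fabp5, a fatty acid binding protein gene, averaged 17.7 CPM in HFD+MEC1, 9.82 CPM in HFD and 37.8 CPM in ND, and its HFD libraries lay below its ND libraries without overlap (edgeR adjusted p = 0.172 for HFD against ND). Lpl, the lipoprotein lipase gene, averaged 21.1 CPM in HFD+MEC1, 23.2 CPM in HFD and 32.97 CPM in ND (edgeR adjusted p = 0.13 for HFD against ND). Cd9 averaged 15.6 CPM in HFD+MEC1, 16.3 CPM in HFD and 16.1 CPM in ND. The part of macrophages in the Spp1 values was not tested. Of 7 osteopontin receptor genes, 0 were called in any of the 3 comparisons; Itgb1 averaged 188 CPM in HFD+MEC1, 190.5 CPM in HFD and 187 CPM in ND.

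**Figure D2:**
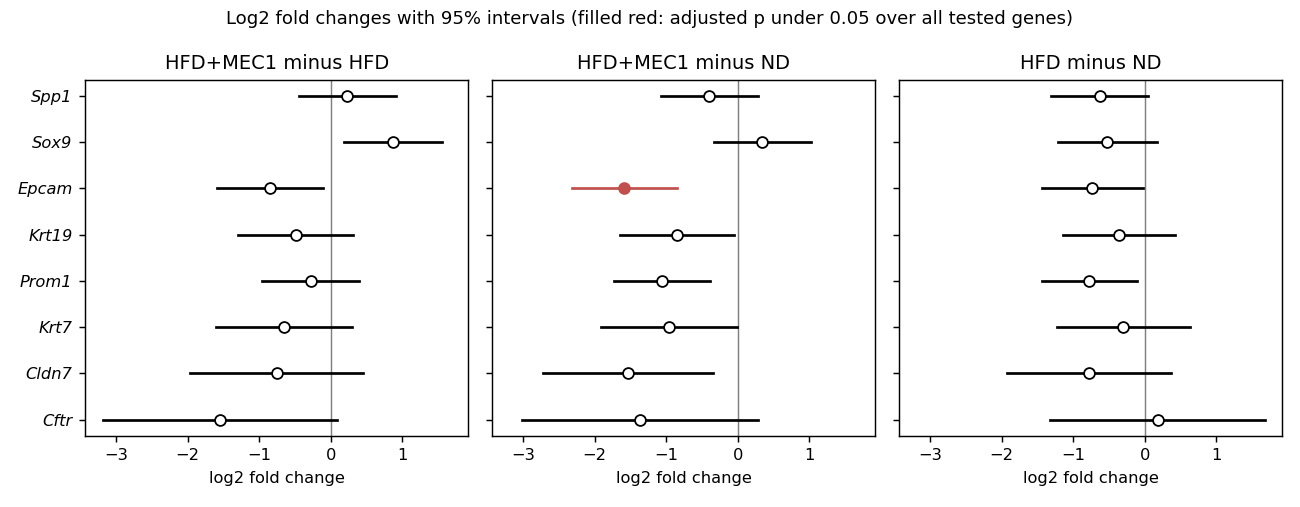
Log2 fold change of each marker (x axes) with its 95% interval in the 3 comparisons, with the group named first on top of the ratio. The filled red point is the 1 call, Epcam in HFD+MEC1 against ND at -1.59, and in HFD+MEC1 against HFD Sox9 stands at 0.87 while Epcam stands at -0.85.

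The comparisons share libraries, so their values are set side by side and not taken as separate support. In HFD+MEC1 against HFD, 0 of 8 markers were called, against 0.0282% of all genes. In that comparison 6 of 8 markers were negative, against 48.9% of all genes, with a median of -0.57 against 0.0060. Epcam and Sox9, 2 of 8, had an unadjusted p under 0.05, as did 14.8% of all genes, and 0 of 8 markers had groups that did not overlap, against 7.11%. In HFD against ND, 0 of 8 markers were called, against 6.3% of all genes. There 7 of 8 were negative, against 50.6% of all genes, with a median of -0.58 against -0.0035. Epcam and Prom1, 2 of 8, had an unadjusted p under 0.05, as did 20.7% of all genes, and 0 of 8 had groups that did not overlap, against 14.3%. Epcam, Krt7, Krt19, Cldn7 and Prom1 each averaged lowest in HFD+MEC1, intermediate in HFD and highest in ND. Sox9, Spp1 and Cftr had other orders: Sox9 averaged highest in HFD+MEC1, Spp1 lowest in HFD and Cftr highest in HFD. The share of all genes with the first order was not counted. Counted per library, 4, 5, 4 and 6 of the 8 markers lay below the lowest ND value in HFD+MEC1 replicates 1 to 4, and 3, 3, 1 and 2 in HFD replicates 1 to 4. The same held for 22.4 to 27.2% of all tested genes in these 8 libraries.

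Markers were compared pairwise over the 12 libraries, 28 pairs in all, on log2 CPM. The highest correlations were between Epcam and Prom1 (Pearson r = 0.76, permutation p = 0.0039, adjusted p = 0.0729; Spearman rho = 0.73, permutation p = 0.00885, adjusted p = 0.15) and between Krt7 and Krt19 (Pearson r = 0.75, permutation p = 0.00521, adjusted p = 0.0729; Spearman rho = 0.72, permutation p = 0.0107, adjusted p = 0.15). No pair passed the adjustment over 28. Without the 2 libraries farthest from the median of the first gene named, r was 0.53 for Epcam with Prom1 and 0.65 for Krt7 with Krt19. Within groups r was 0.43 and 0.66. Sox9 and Spp1 had r = 0.50 (permutation p = 0.0971, adjusted p = 0.388) and rho = 0.51 (permutation p = 0.0926, adjusted p = 0.509), and Sox9 with Krt19 had r = -0.36 (permutation p = 0.245, adjusted p = 0.528) and rho = -0.31 (permutation p = 0.331, adjusted p = 0.565). The libraries share their groups, and the part of low counts in these values was not tested.

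As a description of likeness, the 3 genes whose log2 CPM followed each marker most closely over the 12 libraries were taken from genes averaging at least 20 counts. For Krt19 these were Ugt2b5, Rbm28 and Tspan8, the last of which is also expressed by bile ducts (r = 0.91, 0.89 and 0.88). For Epcam they were Adssl1, Rbms2 and Mif (r = 0.91 for each). For Sox9, Atp11a and Slc41a2 were among them (r = 0.96 and 0.95). For Krt7 they were Rasa1, Mdp1 and Fmr1 (r = 0.96, 0.89 and 0.89), and for Prom1 A830010M20Rik, Nfic and Slc25a28 (r = 0.95, 0.89 and 0.88). For Cldn7 they were Atp23, Tmem199 and Ddt (r = 0.85, 0.82 and 0.80). For Cftr they were Kcne3, Il1a and Rras2 (r = 0.83, 0.81 and 0.81), of which Kcne3 had r = 0.54 without the 2 libraries farthest from the Cftr median. For Spp1 they were Zkscan6, Sart3 and Thap3 (r = 0.89, 0.87 and 0.86). No marker was among the 3 genes most like another marker, though Cftr, with a mean of 10.3 counts, could not have been.

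Of 24 further genes of bile duct epithelium, 18 could be tested, and 6, among them Sctr and Mmp7, had too few counts. In HFD+MEC1 against ND, 1 fell and 17 did not pass, with 15 of 18 negative and a median of -0.41. Of all tested genes, 4.54% were called and 49.4% were negative in it, and 6.3% were called in HFD against ND. In HFD against ND 13 of 18 were negative, against 50.6% of all genes, with a median of -0.20. In HFD+MEC1 against HFD 13 of 18 were negative as well, against 48.9% of all genes, with a median of -0.26. Anxa13, an annexin gene, averaged 0.127 CPM in HFD+MEC1, 0.368 CPM in HFD and 0.929 CPM in ND (log2 fold change against ND -2.81 ± 0.71, edgeR adjusted p = 0.033), a call lost in 5 of 8 fits that left out 1 library, with limma-voom and with log2 RPKM at a pseudocount of 1. In HFD against ND, 1 rose and 17 did not pass: Wfdc2, a secreted protease inhibitor homologue, averaged 6.51 CPM in HFD and 2.01 CPM in ND (log2 fold change 1.69 ± 0.39, edgeR adjusted p = 0.0191). That call was lost in 4 of 8 fits that left out 1 library and with limma-voom. In HFD+MEC1 Wfdc2 averaged 1.71 CPM, below HFD without overlap, but did not pass (edgeR adjusted p = 0.0766).

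The most abundant genes of the list, Tm4sf4, Slc4a2 and Pkd2, stood between -0.17 and 0.28 on the log2 scale in the 3 comparisons. They averaged 34.4, 4.94 and 3.19 RPKM, against 0.497 RPKM for Epcam and 0.723 RPKM for Krt19. The part of other liver cells in their values was not tested. Slc4a2 encodes the chloride-bicarbonate exchanger that works beside CFTR, and genes on the other strand cover 13.7% of its exons.

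**Figure D3:**
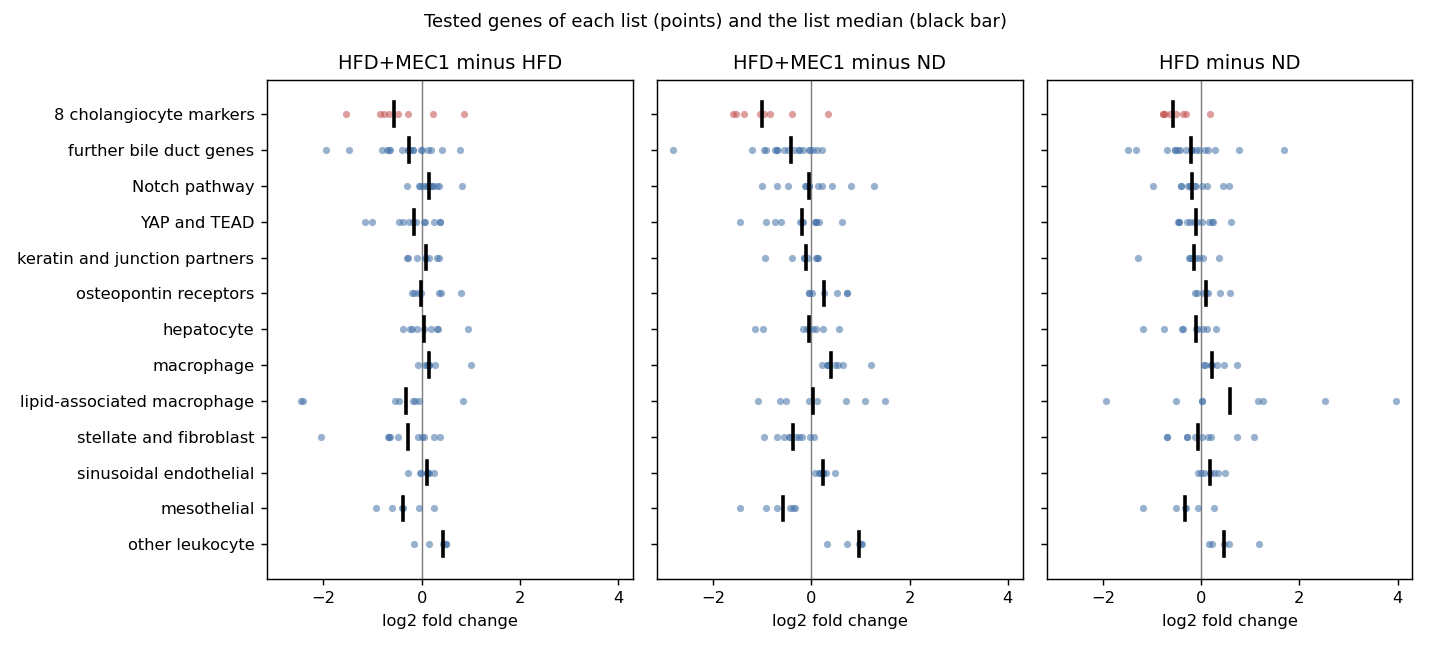
Log2 fold changes (x axes) of the tested genes of each list (points), with the list median as a black bar, in the 3 comparisons. The cholangiocyte markers, in red, have a median of -1.01 in HFD+MEC1 against ND, and the further bile duct genes one of -0.41.

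Notch receptors and ligands direct duct formation, and Hes1 is a main target gene of the pathway. Hes1 was called higher in HFD+MEC1 than in ND. It averaged 9.09 ± 1.17 CPM in HFD+MEC1, 5.11 ± 1.59 CPM in HFD and 3.73 ± 0.908 CPM in ND (SD, n = 4 each). Its log2 fold change against ND was 1.28 ± 0.23 (edgeR adjusted p = 0.00513), a call kept without any 1 of the 8 libraries, and against HFD it was 0.83 ± 0.23 (edgeR adjusted p = 0.132). Its HFD+MEC1 libraries overlapped neither group. Dll1, a Notch ligand gene, averaged 1.54 CPM in HFD+MEC1, 1.58 CPM in HFD and 3.12 CPM in ND, and fell against ND in both (edgeR adjusted p = 0.0403 and 0.0369), although a gene on the other strand covers 20.5% of its exons and both calls were lost in 6 of 8 fits that left out 1 library. Both were also lost with library totals in place of TMM and with log2 RPKM at a pseudocount of 0.1, and that of HFD+MEC1 against ND also at a pseudocount of 1. The other 10 of 12 Notch genes did not pass in any comparison. Of all tested genes, 4.54% were called in HFD+MEC1 against ND and 6.3% in HFD against ND. Jag1, the ligand needed for duct formation, averaged 3.54 CPM in HFD+MEC1, 4.35 CPM in HFD and 5.74 CPM in ND (edgeR adjusted p = 0.0537 against ND).

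Of 12 genes of YAP and TEAD, a pathway active in duct cells, 1 rose in HFD against ND and 11 did not pass. Of all tested genes, 6.3% were called in that comparison. Wwtr1, which encodes the YAP relative TAZ, averaged 26.7 CPM in HFD and 17.4 CPM in ND (edgeR adjusted p = 0.00908), and 19.4 CPM in HFD+MEC1. Yap1 stood between 0.01 and 0.08 on the log2 scale in the 3 comparisons. In HFD+MEC1 against HFD and against ND, 0 of the 12 were called, against 0.0282% and 4.54% of all genes. In each of these, 7 of 12 were negative, against 48.9% and 49.4% of all genes. Ctgf averaged 4.35 CPM in HFD+MEC1, 9.72 CPM in HFD and 8.31 CPM in ND. Its HFD+MEC1 libraries lay below HFD without overlap, as 7.11% of all genes did not overlap in either direction (edgeR adjusted p = 0.0898 against HFD, 0.051 against ND). Of 8 keratin and junction partner genes, Cdh1, the cadherin of hepatocyte and duct cell contacts, fell in HFD against ND, where it averaged 32.8 CPM in HFD and 80.5 CPM in ND (edgeR adjusted p = 0.013). In HFD+MEC1 Cdh1 averaged 41.6 CPM (edgeR adjusted p = 0.0567 against ND). Krt8 averaged 118 CPM in HFD+MEC1, 145 CPM in HFD and 156 CPM in ND (edgeR adjusted p = 0.0545 against ND), and Krt18 averaged 105 CPM in HFD+MEC1, 98.7 CPM in HFD and 117 CPM in ND.

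Markers of other liver cells were counted in the same way. Of all tested genes, 4.54% were called and 49.4% were negative in HFD+MEC1 against ND, and 48.9% were negative in HFD+MEC1 against HFD. In HFD+MEC1 against ND, 8 of 8 macrophage markers, 8 of 8 sinusoidal endothelial markers and 5 of 5 tested leukocyte markers were positive, with medians of 0.41, 0.23 and 0.97, and 1 of these genes was called, the endothelial Clec4g (edgeR adjusted p = 0.0306, lost in 4 of 8 fits that left out 1 library and in a fit of only these groups). Of 10 stellate cell and fibroblast markers 9 were negative with 0 called and a median of -0.38. Of 9 hepatocyte markers 5 were negative and 4 positive with a median of -0.06, and Cps1, a periportal urea cycle enzyme gene, fell (edgeR adjusted p = 0.00762). In HFD against ND, 8 of 8 macrophage, 6 of 8 endothelial and 5 of 5 leukocyte markers were positive, with medians of 0.21, 0.18 and 0.47. Of the stellate cell and fibroblast markers, 5 of 10 were negative there. In that comparison 6.3% of all tested genes were called and 50.6% were negative. Cps1 also fell in it (edgeR adjusted p = 0.00498). In HFD+MEC1 against HFD, Cps1 stood at 0.04 ± 0.22 (edgeR adjusted p = 0.949). Of 6 pancreatic acinar markers, 1 could be tested and Cpa1 and Cpb1 had 0 counts in all libraries. Of 4 proliferation genes, 4 were negative in HFD+MEC1 against HFD and 0 were called in any comparison, and their summed level was 2.59 to 6.04 CPM in HFD+MEC1, 7.16 to 9.13 CPM in HFD and 3.95 to 8.41 CPM in ND. The part of these cells in the marker values was not tested.

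**Figure D4:**
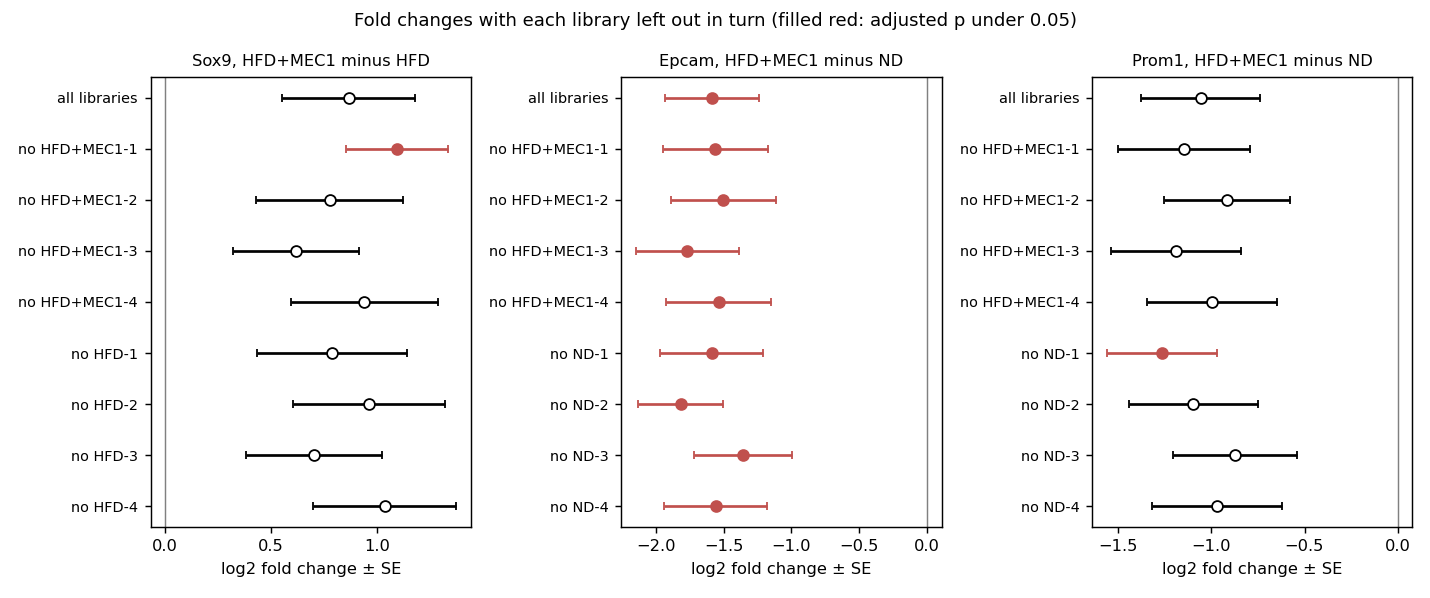
Log2 fold change ± SE (x axes) of Sox9 in HFD+MEC1 against HFD, and of Epcam and Prom1 in HFD+MEC1 against ND, with all 12 libraries and with each compared library left out. Filled red points are calls: Epcam is called in all 9 fits, Prom1 without ND replicate 1 and Sox9 without HFD+MEC1 replicate 1.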

How the data were processed

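Each of the 12 libraries has its own deposited table of gene counts, as whole numbers, and an RPKM table covers the series, both made by the authors. The submitters' processing notes name STAR 2.7.10a and the build mm10; the counting tool, annotation and use of strand are not given in the sources used here. The RPKM table held 12 columns that match no sample, which were not used. RPKM served to compare genes per length and as an alternative. Genes were filtered with filterByExpr (minimum count 10), which kept 14172 genes with 99.98% of counts. Libraries were scaled by TMM, and 1 quasi-likelihood model with robust dispersion was fitted to the 3 groups with edgeR 4.0.16 in R 4.3.3. List medians used the log2 fold changes of this model. Correlations used log2 CPM with TMM factors and a prior count of 2. Replicates of a group differed by more than counting error (chi-square per gene of at least 35.9). The labels do not say that equal replicate numbers pair libraries, and the main model did not pair them. Coordinates and overlaps are from GENCODE M21, on the assembly mm10 names (GRCm38). The script was tested on simulated counts. Alternatives were DESeq2 1.42.0, limma-voom (limma 3.58.1), other scalings and filters, log2 RPKM with pseudocounts of 0.1 and 1, a replicate block and leaving out each library. All 8 markers, the Notch, YAP and other lists, and the tests were chosen with earlier results of these data known. Of each further list, genes past the threshold and the 3 most abundant were open to naming. Jag1, Ctgf, Sctr, Mmp7, Upk1b, Cpa1 and Cpb1 were added after their values were seen. Some genes that this rule or the likeness rule covers are not reported here.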

Additional observations from a re-analysis of the deposited data

How the results depend on the processing

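The 3 comparisons were repeated under each alternative. Of 419 fold changes of single markers, 414 kept their sign and their side of the threshold. Prom1 in HFD+MEC1 against ND passed with DESeq2 and without ND replicate 1, and Sox9 in HFD+MEC1 against HFD passed without HFD+MEC1 replicate 1. Cftr in HFD against ND was 0.18 with all libraries and -0.069 to 0.87 with a library left out, changing sign without ND replicate 2 (-0.037) and ND replicate 4 (-0.069). The number of markers called in HFD+MEC1 against ND was 1, 2 with DESeq2, and 1 to 2 with a library left out. In HFD+MEC1 against HFD it was 0, and 0 to 1 with a library left out; in HFD against ND it was 0 throughout. Over all genes, HFD against ND gave 893 calls, 1388 with DESeq2, and 423 to 911 with a library left out (423 when HFD replicate 3 was dropped, 473 for ND replicate 4 and 562 for ND replicate 1). HFD+MEC1 against ND gave 644, 1155 with DESeq2, and 334 to 678 with a library left out (334 when ND replicate 4 was dropped, 390 for ND replicate 1 and 419 for ND replicate 2). HFD+MEC1 against HFD gave 4, but 0 with library totals, 17 with no filter, 0 with a minimum count of 50, 2 with limma-voom, 2 with a fit of only these groups, 0 and 1 with RPKM and pseudocounts of 0.1 and 1, 389 with DESeq2, and 0 to 460 with a library left out. The replicate block gave 896, 21 and 716 calls for HFD against ND, HFD+MEC1 against HFD and HFD+MEC1 against ND, and ended the Anxa13 and Gpnmb calls (adjusted p = 0.0568 and 0.0539). Deviations of libraries with the same number correlated at -0.0942 to 0.133, and 2 to 3 of 8 libraries per comparison correlated best with their own number. With so few libraries these values cannot decide whether equal numbers pair libraries. With library totals, 66.8% of genes called in HFD+MEC1 against ND were higher, against 47.2% with TMM, and with RPKM 64.2 and 62.7%. In HFD against ND the share with RPKM was 72.6 and 72.0%. Halving the counts, an alternative chosen after seeing the data, changed no marker call. The causes of these differences were not tested. The lowest counts in a library were 0 for Cftr, 6 for Cldn7 and 10 for Krt7, and the part of depth in their spread was not tested.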
